A study of Homo sapiens with 4 samples.

Results

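The genes described here are 10 members of the hepatic acute phase response and of interleukin-6 (IL-6) signalling, taken from a fixed list of symbols and matched to the Ensembl identifiers of the count tables. All 10 of 10 symbols were found among 62893 listed genes. They are the plasma proteins CRP, SAA1, SAA2, HP, ORM1, ORM2 and LBP, the receptor IL6R, the transcription factor STAT3 and the inhibitor SOCS3. RNA was sequenced from Hep-G2, a human hepatoma-derived line, at passage 21. Control cells carried the scramble shRNA SHC002, and the other group carried the shRNA TRCN0000246247 against FTO, an RNA demethylase. Each group is 1 line with 1 shRNA, and no cytokine treatment is named in the labels. Each group has 2 count tables, which the sample titles number as rep 1 and rep 2 and which are called run 1 and run 2 here, since they could not be shown to be separate samples.

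IL-6 binds its receptor IL6R, and the complex engages the shared signalling chain gp130, encoded by IL6ST. Gp130 activates Janus kinases, which phosphorylate STAT3, and STAT3 then enters the nucleus and switches on target genes. One of these is SOCS3, which binds gp130 and the kinases and shuts the signal off. In hepatocytes the same pathway, together with interleukin-1 and C/EBP factors, raises the secretion of positive acute phase proteins during inflammation, while negative acute phase proteins such as albumin decline.

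The tables held 20047409 to 20706611 reads assigned to genes. Runs of the same group agreed within sampling noise, with a chi-square per degree of freedom of 1.019 for scramble and 1.013 for shFTO against 118.5 to 120.4 between groups. They were therefore pooled and counted as 1 sample, so each comparison sets a single sample against a single sample, without replicates. Each ratio carries an exact 95% Clopper-Pearson interval of the pooled counts, which covers counting error only. Nothing in the labels says that the runs came from separate cultures, and the 2 tables of a group may be repeat reads of 1 library. FTO itself gave 594 and 550 reads in scramble against 116 and 128 in shFTO, and was 5.32-fold lower (4.63 to 6.13). Hepatocyte markers were all detected (8 of 8), and their summed level was 33280 and 33320 CPM (the read count scaled to a common library size) in scramble and 12690 and 12740 in shFTO. Of 7 macrophage markers, whose summed level was 1.53 and 1.92 CPM in scramble and 0.27 and 0.28 in shFTO, PTPRC and VSIG4 had no read. Most of these reads were AIF1, at 28 and 35 in scramble and 4 and 5 in shFTO. Each other macrophage marker had at most 1 read in any table. Of 4 endothelial markers, at 0.37 and 0.47 against 0.23 and 0.32 CPM, KDR and PECAM1 had none, and of 4 stellate cell markers, at 23.1 and 23.7 against 6.44 and 7.06 CPM, COL3A1 had none. That sum was mostly PDGFRB in scramble, whereas COL1A1 went the other way, from 2 and 3 reads to 61 and 74, or 23.8-fold higher (9.95 to 74.5). The part of the lower hepatocyte marker level in the results below was not tested. In bulk RNA, fewer cells of a type and less RNA per cell cannot be told apart.

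Of the 10 members, 6 had enough reads to compare (HP, ORM1, ORM2, SOCS3, STAT3 and IL6R). HP and SOCS3 were more than 2-fold lower in the knockdown, and no member was 2-fold higher. Among all 13767 genes that passed the filter on low counts, 6.17% (849) were at least 2-fold lower and 5.08% (699) at least 2-fold higher. With plain library sizes in place of the trimmed mean of M values (TMM), these numbers were 657 and 928, and the median log2 ratio of all genes shifted up by 0.17. The median log2 ratio of the 6 members was 0.13, against 0.01 over all genes. With so few members the 2 decreases are read one by one below. The shares over all genes are also the background for each list count below. The lists were chosen with earlier results of these data known.

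**Figure D1:**
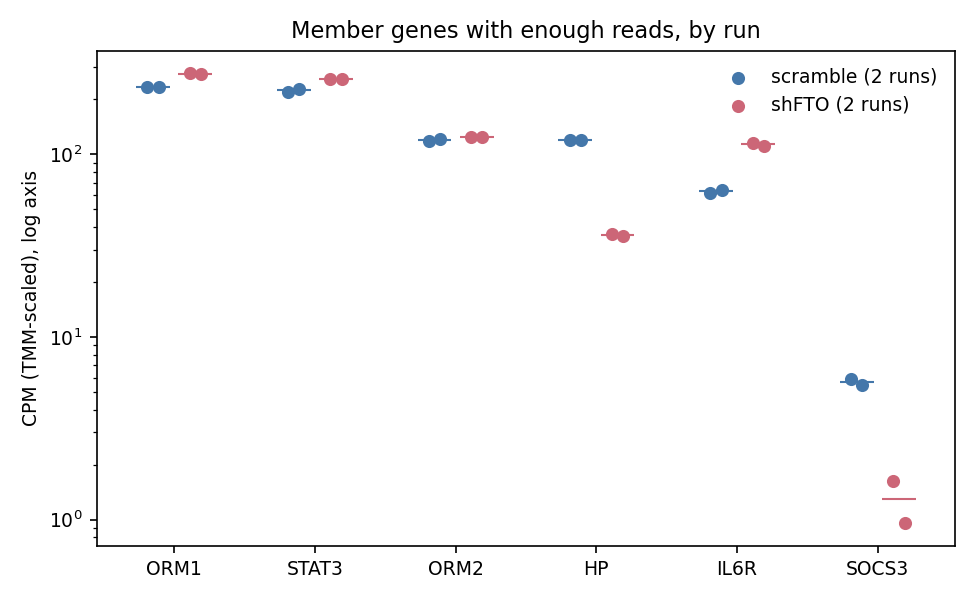
Level of each member with enough reads in the 4 count tables, in TMM-scaled CPM on a log axis. Points are runs and short lines the pooled level, blue for scramble and red for shFTO. HP and SOCS3 sit lower and IL6R higher in both shFTO runs, whereas the ORM2 levels lie close together.

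HP encodes haptoglobin, the plasma protein that binds free haemoglobin. It had 2258 and 2326 reads in scramble and 785 and 780 in shFTO, or 119.4 and 120.4 against 36.7 and 35.5 CPM. The HP transcript was 3.32-fold lower (3.14 to 3.52), and its log2 ratio of -1.73 stood at percentile 2.18 of all genes with enough reads. In Hep-G2 this placed HP below STAT3 in length-scaled level after the knockdown, although it was above it in scramble.

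HPR, the haptoglobin-related gene next to HP, shares long stretches with it. Of the 50-base windows in the protein-coding HP transcripts, 20.2% also occur in HPR, and of those of HPR 36% occur in HP, so reads of the pair can be split or lost. HPR had 271 and 295 reads in scramble and 158 and 156 in shFTO, a level 2.04-fold lower (1.78 to 2.35), or under 2-fold with plain library sizes. HP took 89.0% of the reads of the pair in scramble (88.1 to 89.9) and 83.3% in shFTO (81.5 to 85.0). The share of HP in the pair was thus lower in the knockdown, beyond counting error. HP also overlaps TXNL4B on the opposite strand, but by 0 bases of annotated exons.

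ORM1 and ORM2 encode orosomucoid (alpha-1-acid glycoprotein), a plasma carrier of drugs and lipids. Their coding sequences are the same length, 606 bases, and differ at 31 positions (94.9% identity). The most divergent stretch of 120 bases, coding bases 284 to 403, is shown because reads can be assigned to one copy only where the copies differ. Capitals mark the 21 bases that differ, in GENCODE v29 transcripts.
ORM1: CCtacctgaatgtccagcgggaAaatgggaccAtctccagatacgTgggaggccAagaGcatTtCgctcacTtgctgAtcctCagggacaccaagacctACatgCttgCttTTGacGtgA
ORM2: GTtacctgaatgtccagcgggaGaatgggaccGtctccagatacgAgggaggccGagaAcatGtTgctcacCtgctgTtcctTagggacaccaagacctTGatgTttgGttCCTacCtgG

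Both orosomucoid genes stayed at high levels in the knockdown, unlike HP. ORM1 had 4411 and 4546 reads in scramble and 5954 and 6054 in shFTO, or 233.3 and 235.2 against 278.0 and 275.7 CPM. The ORM1 level was 1.18-fold higher (1.15 to 1.21), or 1.33-fold (1.29 to 1.36) with plain library sizes. ORM2 had 2251 and 2346 reads against 2666 and 2728, or 119.0 and 121.4 against 124.5 and 124.2 CPM. The ORM2 ratio of 1.03 had a counting interval that holds 1 (0.99 to 1.08), but with plain library sizes it was 1.16 (1.12 to 1.21), so its difference depends on the scaling.

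Within the pair, ORM1 took 66.1% of reads in scramble (65.3 to 66.9) and 69.0% in shFTO (68.3 to 69.7). This share does not depend on the scaling of libraries. Run by run it was 66.2% and 66.0% for scramble against 69.1% and 68.9% for shFTO. Of the 50-base windows of ORM1, 47.4% occur unchanged in ORM2, and of those of ORM2 50.2% occur in ORM1. How reads matching both genes were treated is not given in the sources used here, so each copy's level is uncertain.

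**Figure D2:**
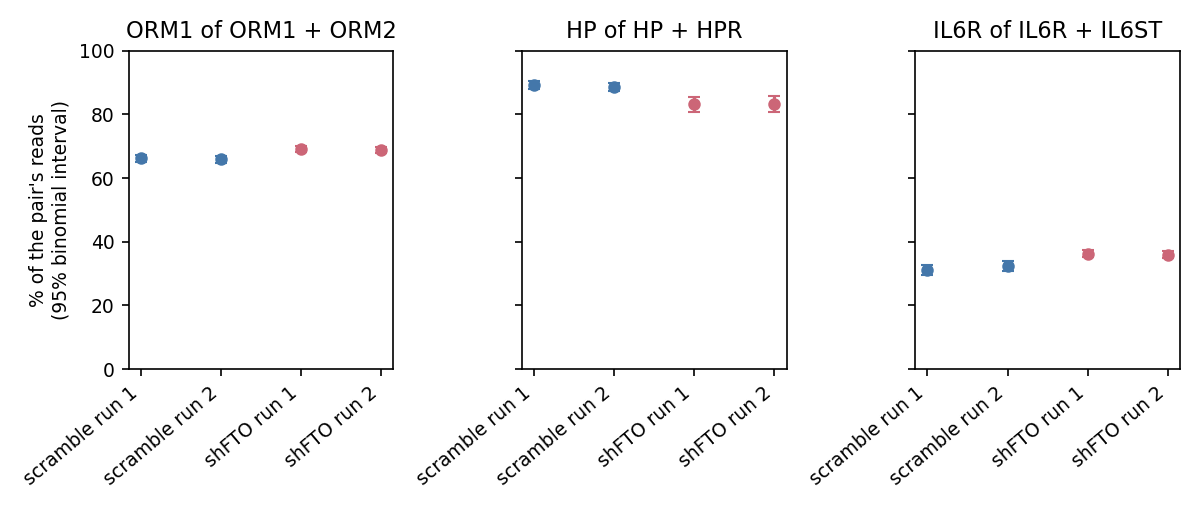
Share of a pair's reads taken by the first gene, in percent, in each of the 4 count tables (blue scramble, red shFTO), with exact 95% binomial intervals of counting error. ORM1 and IL6R took a slightly larger share of their pairs in both shFTO runs, and HP a smaller share of HP plus HPR.

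The 4 other plasma protein members had next to no reads in any count table. CRP, the pentraxin that marks inflammation in blood tests, and SAA1, the main serum amyloid A, had 0 reads in all 4 tables. SAA2 had 2 and 1 reads in scramble and 0 and 0 in shFTO, and LBP, which hands bacterial lipopolysaccharide to CD14, had 1 read in a single scramble run. A count of 0 allows up to 0.078 CPM over the pooled scramble runs and 0.069 CPM over the pooled shFTO runs, taking 3 reads as the limit. No ratio is given for these genes, because both groups lie at or under that limit, and a difference was not detectable at this depth.

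SAA1 and SAA2 are close copies as well, with 11 differences over 369 coding bases (97% identity). Coding bases 204 to 323 hold 10 of these differences, in capitals, and are shown because they are where reads could tell the copies apart.
SAA1: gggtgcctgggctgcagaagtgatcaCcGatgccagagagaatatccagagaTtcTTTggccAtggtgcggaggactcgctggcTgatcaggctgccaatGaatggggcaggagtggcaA
SAA2: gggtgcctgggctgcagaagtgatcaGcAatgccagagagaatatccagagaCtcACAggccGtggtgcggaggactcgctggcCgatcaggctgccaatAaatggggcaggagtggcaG

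Of the 50-base windows of SAA1, 46.6% occur unchanged in SAA2. Reads from those windows could have been dropped in counting, while the other windows are not found in SAA2. The readthrough gene SAA2-SAA4, the pseudogenes SAA3P and CRPP1 and the CRP relative APCS also had 0 reads. SAA4, the constitutive serum amyloid A, had 3 and 9 reads in scramble and 1 and 0 in shFTO, too few to compare.

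Summed over the 7 plasma protein members, the level was 471.9 and 477.0 CPM in scramble and 439.1 and 435.5 CPM in shFTO. With plain library sizes the same sum was 445.1 and 450.3 CPM in scramble and 465.1 and 461.8 in shFTO, so the direction of the sum turned with the scaling. Per length, using the longest annotated protein-coding transcript, the order in scramble was ORM1 at 292 CPM per kilobase, ORM2 at 158, HP at 80.9, STAT3 at 44.3, IL6R at 10.6 and SOCS3 at 2.08. In shFTO the length-scaled order was ORM1 at 345, ORM2 at 164, STAT3 at 51.3, HP at 24.3, IL6R at 19.2 and SOCS3 at 0.47. Only HP and STAT3 exchanged places in this order. Culture-to-culture spread is unknown, so the gaps between neighbours in the order can be set against counting error only.

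IL6R encodes the ligand-binding chain of the IL-6 receptor. It had 1157 and 1240 reads in scramble and 2473 and 2446 in shFTO, or 61.2 and 64.2 against 115.5 and 111.4 CPM. The IL6R level was 1.81-fold higher (1.72 to 1.90), at percentile 93.4 of all genes. With plain library sizes it was 2.03-fold higher (1.94 to 2.13), which passes the 2-fold mark. The antisense gene IL6R-AS1 overlaps IL6R by 0 bases of annotated exons.

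The signalling chain IL6ST was 1.49-fold higher (1.44 to 1.54), from 134.8 to 200.9 CPM. IL6R took 31.7% of the reads of IL6R plus IL6ST in scramble (30.7 to 32.8) and 36.1% in shFTO (35.3 to 36.9), so the ligand-binding chain gained more than the shared chain. Chains for other ligands of the family were lower. OSMR, the oncostatin M receptor, was 2.76-fold lower (2.62 to 2.91), at 123.4 CPM in scramble and 44.7 in shFTO, and LIFR, the leukaemia inhibitory factor receptor, was 2.21-fold lower (1.95 to 2.52). Of 6 receptor chains and sheddases with enough reads, 3 were at least 2-fold lower and none higher, or 1 lower with plain library sizes. Over all genes 6.17% were lower and 5.08% higher. The median log2 ratio of the 6 was -0.53. That median was -0.26 without shFTO run 1 and 0.003 when at least 10 reads were required in each table, which leaves out IL11RA. The third was IL11RA, the interleukin-11 receptor, at 15 and 20 reads in scramble against 5 and 14. ADAM17, a protease that sheds IL6R from the cell surface, was 1.40-fold higher (1.32 to 1.49).

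IL6 itself had 0 reads in all 4 tables, which allows the same upper limits as for CRP. Of 7 ligands of the family 4 had enough reads. LIF, a cytokine of the same family, measured 33.0 CPM in scramble and 15.6 in shFTO, 2.11-fold lower (1.92 to 2.32), or under 2-fold with plain library sizes. IL11, at 26 and 18 reads against 62 and 63, was 2.50-fold higher (1.76 to 3.62), and CLCF1 was 2.17-fold higher (1.61 to 2.96), both at under 4 CPM. The ligand list thus split, with 1 gene 2-fold lower and 2 higher, beside 6.17% and 5.08% of all genes.

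STAT3 carries the signal from the receptor to the nucleus. It had 4137 and 4421 reads in scramble and 5561 and 5670 in shFTO, or 218.8 and 228.8 against 259.6 and 258.2 CPM. The step between the groups was small. The STAT3 level was 1.16-fold higher (1.12 to 1.19), or 1.30-fold (1.26 to 1.34) with plain library sizes. These are transcript levels, and phosphorylation of STAT3, which sets its activity, was not measured.

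Among the kinases, other STATs and adaptors, JAK1 stood furthest out. JAK1, a main kinase of gp130, had 1229 and 1214 reads against 2804 and 2861 and was 2.04-fold higher (1.95 to 2.14). The other Janus kinases were higher by less. JAK2 was 1.71-fold higher (1.41 to 2.08) and TYK2 1.20-fold (1.14 to 1.27). Of 11 genes in this list 1 was at least 2-fold higher and none lower (5.08% and 6.17% over all genes). Counting intervals lay above 1 for 5 and below 1 for 5, or 7 and 1 with plain library sizes, and the median log2 ratio was 0.01. GAB1, an adaptor, was 1.40-fold lower (1.24 to 1.57).

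SOCS3 is the feedback inhibitor of gp130 signalling and had the largest fold difference of any member. It had 111 and 106 reads in scramble and 35 and 21 in shFTO, or 5.87 and 5.49 against 1.63 and 0.96 CPM. The shFTO runs were further apart from each other than the scramble runs. The SOCS3 level was 4.40-fold lower (3.26 to 6.01), and its log2 ratio of -2.14 stood at percentile 1.37 of all genes. Leaving out single runs gave log2 ratios from -2.57 to -1.80, all lower in shFTO.

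Other inhibitors did not move as a group. SOCS1, a related inhibitor of Janus kinases, measured 15.5 CPM in scramble and 7.61 in shFTO, 2.03-fold lower (1.77 to 2.33), or under 2-fold with plain library sizes. SOCS2, known for restraining growth hormone signalling, was 2.49-fold higher (1.79 to 3.50) at 24 and 26 reads against 71 and 70. Of 9 inhibitors with enough reads 1 was at least 2-fold lower and 1 higher (6.17% and 5.08% over all genes). The median log2 ratio of the 9 was 0.03. The phosphatases PTPN2 and PTPN6 had ratios of 1.02 (0.95 to 1.10) and 0.999 (0.92 to 1.09).

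**Figure D3:**
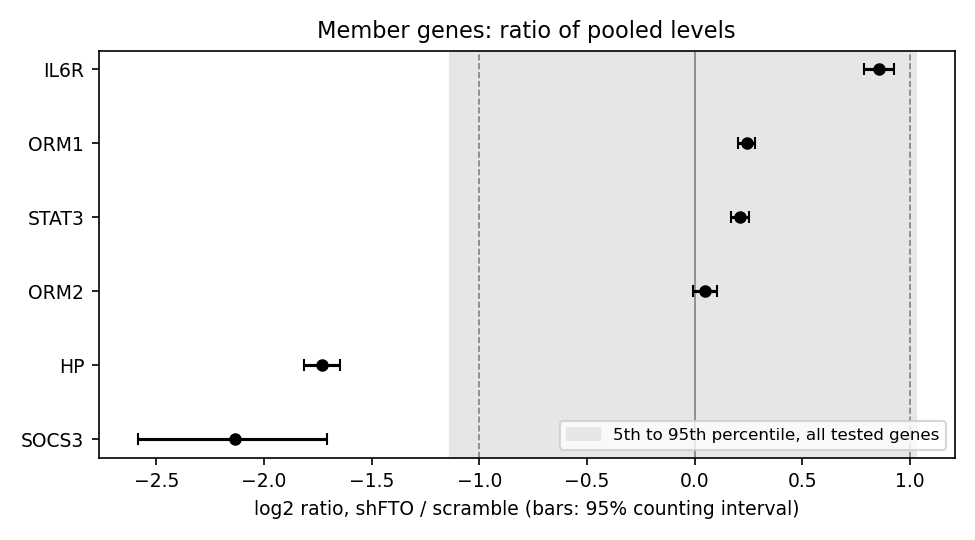
Log2 ratio of shFTO to scramble for the 6 members with enough reads, with 95% counting intervals. The grey band spans the 5th to 95th percentile of all genes (-1.14 to 1.03), and dashed lines mark 2-fold. HP and SOCS3 lie below the band and the other members within it.

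Promoter sequence was matched for 5 of the 10 members in the RefSeq table (GRCh38.p14), with 2 starts for SOCS3. The 250 bases before each start were searched on both strands for a STAT motif (TTCNNNGAA), the short element of IL-6-responsive acute phase genes (CTGGGAA), a C/EBP motif (TTGCNNAA), a kappaB motif (GGNNTTTCC) and a TATA box (TATAAA). The 3 windows with any match are shown, as they set genes that were unread, retained and lower in the knockdown side by side. Capitals mark the matches, and each sequence runs 5′ to 3′ on the gene's strand.
CRP, chr1:159714590-159714839, minus strand: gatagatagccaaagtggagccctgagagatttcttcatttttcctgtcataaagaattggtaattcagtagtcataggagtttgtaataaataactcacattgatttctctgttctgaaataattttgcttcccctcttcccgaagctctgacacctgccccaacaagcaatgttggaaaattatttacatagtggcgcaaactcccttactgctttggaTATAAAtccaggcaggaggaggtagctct
ORM1, chr9:114322848-114323097, plus strand: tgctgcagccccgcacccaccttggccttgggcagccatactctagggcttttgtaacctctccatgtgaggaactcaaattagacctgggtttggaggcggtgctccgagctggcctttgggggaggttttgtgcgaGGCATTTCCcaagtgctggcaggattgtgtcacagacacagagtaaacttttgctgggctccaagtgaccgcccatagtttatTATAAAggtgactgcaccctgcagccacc
SOCS3, chr17:78360926-78361175, minus strand: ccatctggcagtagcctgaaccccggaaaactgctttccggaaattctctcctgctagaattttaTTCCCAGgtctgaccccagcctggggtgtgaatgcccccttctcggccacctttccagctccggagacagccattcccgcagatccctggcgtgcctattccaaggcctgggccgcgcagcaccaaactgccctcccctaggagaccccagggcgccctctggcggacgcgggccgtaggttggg

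The CRP and ORM1 windows each held a TATA box that begins 29 bases before the start, a motif found in 10.7% of 35116 promoter windows of the same length. ORM1 also held a kappaB match beginning 112 bases before the start (5.48% of windows). SOCS3 held the short acute phase element on the reverse strand, beginning 185 bases before the start (9.15% of windows). No window held the STAT motif (6.57% of all windows) or the C/EBP motif (9.05%), and the windows of STAT3, IL6R and the other SOCS3 start held none of the motifs searched. The SOCS3 windows were chr17:78360926-78361175 and chr17:78359668-78359917, and the bases between them were not searched. A STAT motif there would have been missed, so its absence holds for the searched windows only and not for the whole SOCS3 promoter. The matches describe the letters in the window and nothing about binding.

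Among 11 early target genes of IL-6 and STAT3, the C/EBP factors and PIM1 were lower. CEBPD, a C/EBP factor of the acute phase, had 1088 and 1138 reads against 318 and 288 and was 4.17-fold lower (3.81 to 4.57). CEBPB, first described as the nuclear factor of IL-6, had a ratio of 0.502 (0.476 to 0.528), just short of 2-fold lower, and the kinase gene PIM1 was 2.38-fold lower (2.27 to 2.48), at 159.0 against 66.9 CPM. FOS was 5.34-fold lower (3.50 to 8.41) at 73 and 54 reads against 16 and 11. In the other direction BCL3, a nuclear cofactor of NF-kB, was 1.65-fold higher (1.51 to 1.81), and IRF1, an interferon response factor, 1.46-fold higher (1.29 to 1.64). Of the 11 genes 3 were at least 2-fold lower and none higher, beside 6.17% and 5.08% of all genes. Counting intervals lay below 1 for 8 of the 11 and above 1 for 3, or 6 and 4 with plain library sizes. The median log2 ratio of the 11 was -0.25, or -0.09 with plain library sizes.

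Positive acute phase proteins outside the members were mostly lower, and HP was like them in direction while ORM1 was not. Of 22 with enough reads 14 were at least 2-fold lower and 1 higher, or 11 and 1 with plain library sizes. Over all 13767 genes 6.17% were lower and 5.08% higher, or 657 and 928 genes with plain library sizes. The median log2 ratio of the 22 was -1.20. The fibrinogen chains FGA, FGB and FGG were 78.9-fold, 52.9-fold and 44.9-fold lower. CP, the copper carrier ceruloplasmin, was 13.0-fold lower (12.5 to 13.5), at 817.2 against 62.8 CPM. The exceptions were HAMP, the iron hormone hepcidin, 2.36-fold higher (2.20 to 2.53), and MT2A, a metallothionein, 1.28-fold higher (1.22 to 1.34).

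Negative acute phase proteins, which decline in inflammation, were lower too. Of 8 genes 6 were at least 2-fold lower and none higher (median log2 ratio -1.47), or 5 with plain library sizes. Over all genes the 2-fold shares were 6.17% lower and 5.08% higher. TTR, the thyroid hormone carrier transthyretin, was 19.8-fold lower (16.3 to 24.1), at 51.1 against 2.58 CPM. AHSG was 3.71-fold lower (3.68 to 3.74), ALB 3.20-fold (3.19 to 3.22) and APOA1 2.82-fold (2.77 to 2.87). The lower hepatocyte marker sum given above is no separate measure of these lists, since 5 of its 8 genes (ALB, APOA1, TTR, AHSG and SERPINA1) are in them. The 3 markers in neither list, APOA2, APOB and AFP, summed to 7959 CPM in scramble and 3991 CPM in shFTO.

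**Figure D4:**
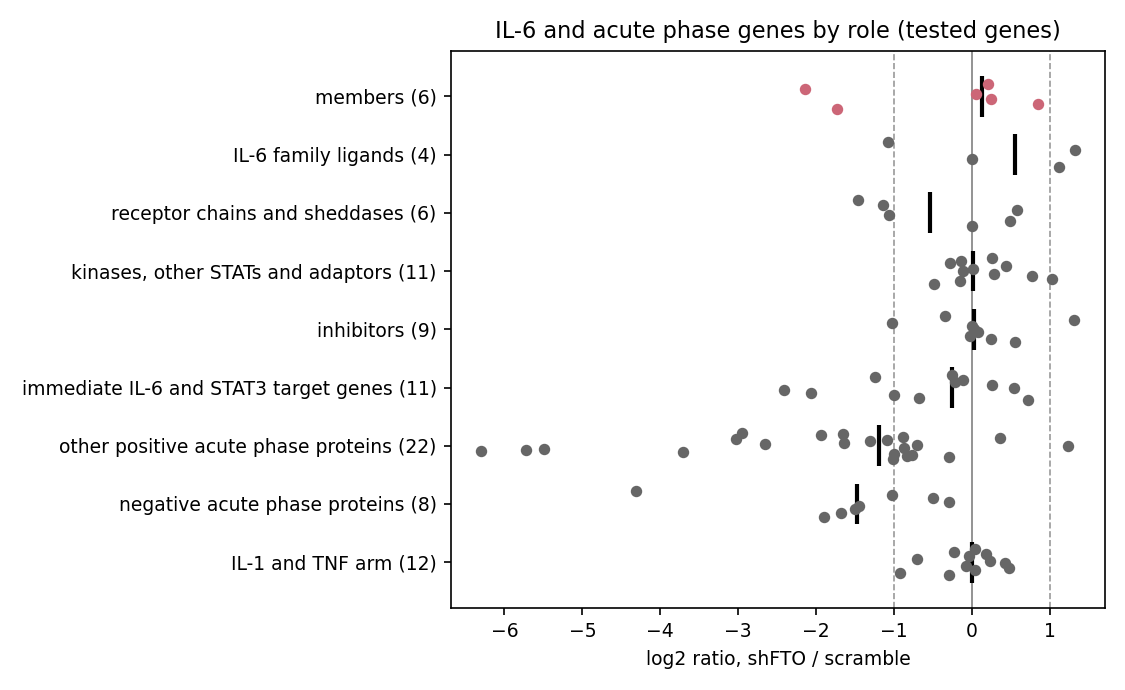
Log2 ratio of shFTO to scramble for the genes with enough reads, grouped by role, with the number of genes in brackets, medians as black bars and dashed lines at 2-fold (height within a row only separates the points). The 2 rows of acute phase proteins have medians of -1.20 and -1.47, whereas the kinases and the inhibitors have medians of 0.01 and 0.03.

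The interleukin-1 and tumour necrosis factor arm, which acts with IL-6 on hepatocytes, had no gene changed by 2-fold among 12 (median log2 ratio 0.00). Over all genes 6.17% were lower and 5.08% higher. Counting intervals lay above 1 for 4 and below 1 for 4. With plain library sizes these were 7 and 3, and the median was 0.17. The largest differences were in IL1RAP, the accessory chain of the interleukin-1 receptor, 1.89-fold lower (1.74 to 2.05), and NFKBIZ, an inducible NF-kB cofactor, 1.63-fold lower (1.48 to 1.80). Of the 5 lipopolysaccharide partners of LBP only CD14 had enough reads, with 31 and 19 against 17 and 17. It was 1.67-fold lower (1.06 to 2.66), but its interval held 1 with plain library sizes. TLR4 had 2 and 1 reads in scramble and 7 and 13 in shFTO, and did not pass the filter on low counts. TLR2, LY96 and BPI had at most 8 reads in any table.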

How the data were processed

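Total RNA of Hep-G2 cells was sequenced by standard Illumina libraries, per the labels' protocols. The authors deposited 1 table of raw gene counts per sample, made with TopHat2 2.1.1, HTSeq 0.6.0 and build hg19, per the submitters' processing notes. The annotation release, read length and strand setting are not given in the sources used here. Symbols were matched for 51226 of 62893 identifiers, and for 100 of 101 list entries. Lengths, overlaps and coding sequences came from GENCODE v29 (GRCh38) and promoters from RefSeq.

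Genes were kept by edgeR's filterByExpr (13767). Levels are counts pooled over the 2 runs of a group, as CPM, scaled by TMM (edgeR 4.0.16, R 4.3.3). A gene counted as changed at 2-fold or more with a 95% counting interval that excludes 1. No p-value of a gene is given, as each group is 1 sample. Runs were compared by chi-square over genes with at least 20 reads. Alternatives were other scalings, filters, a fold of 1.5, left-out runs, and edgeR's quasi-likelihood test and DESeq2 1.42.0 on the 4 tables.

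The members and lists were chosen with earlier results of these data known. Named genes were the members and, in each list, up to 4 genes each way changed by 2-fold at a mean of at least 5 CPM, or the 2 largest differences where none was. Others named (IL6, IL11, CLCF1, IL6ST, IL11RA, ADAM17, ADAM10, JAK2, TYK2, GAB1, SOCS2, PTPN2, PTPN6, CEBPB, FOS, BCL3, IRF1, MT2A, SAA4, APCS and the LBP partners) were chosen after their values were seen.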

Additional observations from a re-analysis of the deposited data

How the results depend on the processing

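The 2 members at least 2-fold lower, HP and SOCS3, stayed at 2 under all 13 alternatives. Members called higher went from 0 to 1 with plain library sizes, by IL6R at 2.03-fold. They also did so when the mark was lowered to a fold of 1.5, by IL6R at 1.81-fold. Over all genes, a fold of 1.5 gave 1751 lower and 1426 higher. Requiring 10 reads in each table gave 633 at least 2-fold lower and 412 at least 2-fold higher. Leaving out single runs gave 842 to 880 lower and 686 to 704 higher. The sign of all 6 member ratios held under the 10 settings that gave one, with log2 ratios from -1.76 to -1.56 for HP, 0.82 to 1.02 for IL6R, 0.23 to 0.41 for ORM1, 0.03 to 0.22 for ORM2 and 0.18 to 0.38 for STAT3. edgeR's test with the replicate number as replicate block called 846 genes lower and 705 higher by 2-fold, against 847 and 704 without the block. DESeq2 called 771 lower and 581 higher by 2-fold. The run numbers share no deviation (correlation 0.004 over genes between the run differences of the groups). These tests compare the deposited tables and not the conditions, as the 2 tables of a group may be repeat reads of 1 library. Depth limits SOCS3 most, and CRP, SAA1, SAA2 and LBP cannot be compared.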
